A study of Mus musculus with 45 samples.

Results

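The genes described here are 35 transcripts of the monocyte and macrophage lineage, followed by RNA sequencing through the distal colon of mice. They were chosen by name, as genes of inflammatory monocytes and of resident macrophages, out of 50600 gene identifiers in the tables. Of these, 10 are associated with recruited monocytes or with activation, 8 with tissue-resident macrophages and 17 with the lineage at large. The mice either carried Il10 or lacked it. Il10 encodes interleukin 10, and mice without it develop colitis.

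In one cohort, 10 libraries came from Il10 knockout mice given vehicle, 7 from knockout mice given compound 13 at 10 mg/kg, 9 from knockout mice given compound 13 at 30 mg/kg and 8 from wild-type (WT) mice with no treatment. Compound 13 is the code name of an antagonist of GPR4, a receptor that senses protons outside the cell. In a cohort labelled day 77 (D77), 5 libraries came from knockout mice given an antibody to p40 and 5 from knockout mice given vehicle, with no wild-type library. The p40 protein is a subunit of interleukin 12 and of interleukin 23. All treated and vehicle groups shared the Il10 deletion, and because the wild-type mice had no vehicle, deletion and vehicle cannot be told apart. The labels give no age or sex. They do not state whether each library is its own animal, so a p-value here speaks of variation among libraries, part of which could be technical. Total counts ran from 22682471 to 36279743 per library.

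The labels were checked with the deleted gene and with markers of the tissue. Il10 had 10 counts summed over the 8 WT libraries, with a count in 4 of them. All 37 knockout libraries, the library without a group included, had 0 counts. That allows up to 0.00294 CPM over their summed depth (a floor of 3 counts over the group, counting error only). At this level Il10 cannot check the label of a single library. The summed level of 5 markers of colon epithelium came to 5922 to 11736 TPM in KO vehicle libraries and to 5630 to 6759 TPM in WT libraries. TPM is a transcript level corrected for transcript length and depth. Lineage genes were present in every library, with Csf1r at 5.88 TPM or more and Lyz2 at 249 TPM or more. Transcripts of exocrine pancreas were also found, with Ctrb1 at 100 TPM or more in 10 of the 44 libraries in a group. The library without a group held 1840 TPM.

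Monocytes leave the blood through the chemokine receptor CCR2 and enter the gut wall, where they normally mature into resident macrophages. During inflammation they keep monocyte features such as high Ly6C and give rise to activated cells that make cytokines and nitric oxide. Resident macrophages are known for scavenger and clearance receptors and for their uptake of dying cells. The transcription factor PU.1, encoded by Spi1, and the receptor for colony stimulating factor 1, encoded by Csf1r, are needed across the lineage. In bulk tissue, fewer cells of a type and less RNA per cell cannot be told apart.

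By level, the members spanned a wide range. In KO vehicle colon Lyz2, the macrophage lysozyme, had the highest mean at 670 ± 255 TPM (SD, n = 10), against 380 ± 72.6 TPM in WT colon (n = 8). Cd14, a co-receptor for bacterial lipopolysaccharide, came next in both groups. At the low end stood Chil3, Vsig4 and Siglec1 in KO vehicle, and Chil3, Clec4e and Vsig4 in WT. Low-level genes such as these rest on few reads.

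The knockout comparison asked how macrophage genes differ in inflamed colon. Activation and lineage genes were higher in KO vehicle than in WT colon, and resident genes were split. Of the 35 members, 32 passed the expression filter, and 24 of them were higher and 1 lower at an adjusted p under 0.05 in edgeR. Over all 16435 genes tested, 49.4% were called, 25.2% higher and 24.1% lower. The median log2 fold change was 0.95 over the 32 members and -0.01 over all genes. All 8 inflammatory members tested were higher (median 1.91), as were 14 of 17 shared members (median 0.93). Among these 8, Clec4e had 569 counts summed in KO vehicle and 28 in WT. Clec4e was tested only because it is high in KO vehicle. Cd80, with 261 counts summed in KO vehicle and 63 in WT, would not have passed the filter on its WT libraries. The calls of both genes add little to that count. Of 7 resident members tested, 2 were higher and 1 lower (median -0.04). With limma on log2(TPM + 1), the median of all genes shifted to -0.17, the calls were 2038 higher and 5783 lower in place of 4147 and 3966, and 17 members were higher and 2 lower of 28 tested.

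The 4 largest log2 fold changes among members were those of inflammatory genes, Clec4e, Clec7a, Ly6c2 and Cd14. Ly6c2, which encodes a surface antigen of inflammatory monocytes (chr15:75108158-75111970, GRCm38), had 12.5 TPM in the lowest, 42.0 in the median and 86.2 in the highest KO vehicle library, against 4.57, 8.48 and 15.9 TPM in WT. Of the 10 knockout libraries, 9 lay above every WT library. The rise was 5.47-fold, a log2 fold change of 2.45 ± 0.31 (SE; adjusted p = 1.79e-05).

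Counted over all its annotated transcripts, Ly6c2 shares 13.9% of its 50-base transcript windows with Ly6c1, so reads of this pair can be split between them. The share over the main transcript alone was not computed. Ly6c1 itself had a median of 341 TPM in KO vehicle and 35.7 TPM in WT. Plac8 and Ly6g, singled out after their values were seen, were higher in the same libraries. Plac8, which inflammatory monocytes express, was at a median of 2634 TPM in KO vehicle and 810 TPM in WT. Its lowest WT value, 750 TPM, was above the highest WT value of Lyz2, 486 TPM, the member with the highest level. The cell source of Plac8 was not tested. Ly6g, used as a neutrophil marker, was at a median of 754 TPM in KO vehicle and 236 TPM in WT, where S100a8, a neutrophil gene, had a median of 0.69 TPM. Their part in the Ly6c2 result was not tested.

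Cd14 had 48.9, 149 and 228 TPM (lowest, median, highest) in KO vehicle and 33.0, 38.8 and 41.0 TPM in WT. No knockout library overlapped the WT range. Its log2 fold change was 1.99 ± 0.24 (adjusted p = 9.57e-06). Non-overlapping ranges held for 4 members, Cd14, Clec7a, Itgax and Csf2rb, all higher in KO vehicle, where 1.95% of all genes tested had that pattern, and for no member in the other direction, where 3.41% had it.

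Clec7a, the receptor for fungal beta-glucans known as dectin-1, had 2.75, 4.67 and 31.0 TPM in KO vehicle and 0.71, 1.17 and 1.78 TPM in WT. All 10 knockout libraries were above the WT range, and 1 of them stood far above the rest. The rise was 7.31-fold (log2 2.87 ± 0.46, adjusted p = 0.000125). Clec4e, a sensor of mycobacterial lipids and dead cells, gave the largest estimate, 4.06 ± 0.98 (adjusted p = 0.00284), on 0.12, 0.57 and 7.38 TPM in KO vehicle and 0, 0.085 and 0.23 TPM in WT. In 8 of 18 refits that left out a library, each a KO vehicle one, Clec4e fell below the filter and was not tested.

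Co-stimulatory molecules, which macrophages and dendritic cells show to T cells, also rose. Cd86 had 2.57, 5.50 and 9.95 TPM in KO vehicle and 0.94, 2.27 and 4.52 TPM in WT (log2 1.57 ± 0.28, adjusted p = 0.000252). The ranges overlapped, with 6 of 10 knockout libraries above every WT library. Cd80 and Cd40 had log2 fold changes of 1.84 and 0.96, with adjusted p of 0.0069 and 0.0247. The call of Cd40 was lost without WT library 4 and without KO vehicle library 2 (adjusted p from 0.0504 to 0.0539) and on the TPM scale (0.0554). B cells also express these genes: the summed level of 5 B cell markers had a median of 145 TPM in KO vehicle (42.1 to 216) and 95.7 TPM in WT (15.5 to 140). Of these 5 markers 4 were called higher (median log2 1.06). The part of B cells in the co-stimulatory genes was not tested.

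Itgam, the integrin alpha chain CD11b, was the last of the 8 inflammatory members tested. It had 1.5, 2.15 and 6.04 TPM in KO vehicle and 0.95, 1.28 and 1.84 TPM in WT, with all 10 knockout libraries above the WT mean and 5 above every WT library (log2 1.18 ± 0.28, adjusted p = 0.00235). Chil3 and Arg1, which are raised in alternatively activated macrophages, stayed below the filter. Chil3 was listed at 0 in 6 of 10 KO vehicle and 8 of 8 WT libraries, and a fit without the filter called it higher (log2 3.18, adjusted p = 0.0379). Arg1 had 0, 0.365 and 5.40 TPM in KO vehicle and 0.05, 0.16 and 7.87 TPM in WT, the high WT value being that of WT library 5, which also held 4335 TPM of the pancreatic gene Ctrb1.

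Resident macrophage genes did not move together. Folr2, the folate receptor beta of resident macrophages, was the only member called lower. It had 0.14, 1.44 and 5.67 TPM in KO vehicle and 2.48, 5.42 and 8.55 TPM in WT. Of the knockout libraries, 9 of 10 were below every WT library, and KO vehicle library 3 was inside the WT range. The change was 3.18-fold lower, a log2 fold change of -1.67 ± 0.49 (adjusted p = 0.00988), and -2.10 without that library.

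Cd163, the haemoglobin scavenger receptor, had 0.02, 0.175 and 1.95 TPM in KO vehicle and 0.68, 1.45 and 2.43 TPM in WT. Its log2 fold change of -1.5 ± 0.64 missed the threshold (adjusted p = 0.0598). Without KO vehicle library 8 it was -2.21 (adjusted p = 0.00389), and DESeq2 and limma voom on all libraries gave adjusted p of 0.0349 and 0.00231. Mrc1, the mannose receptor, had 2.45, 3.55 and 6.04 TPM in KO vehicle and 3.46, 5.12 and 6.71 TPM in WT (log2 -0.18 ± 0.18, adjusted p = 0.405). On the log2(TPM + 1) scale Mrc1 was lower with adjusted p = 0.0331.

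The receptors Cx3cr1 and Adgre1 were the resident members called higher. Cx3cr1, the fractalkine receptor of gut macrophages, had 2.0, 4.42 and 6.83 TPM in KO vehicle and 2.05, 2.31 and 3.77 TPM in WT (log2 0.88 ± 0.21, adjusted p = 0.00286). Adgre1, which encodes F4/80, had 2.02, 2.79 and 3.86 TPM in KO vehicle and 1.58, 2.10 and 3.63 TPM in WT, a small rise (log2 0.51 ± 0.20, adjusted p = 0.0393) that was lost in 9 of 18 refits without 1 library and on the TPM scale (adjusted p = 0.18). Timd4, a receptor for dying cells, had 0.57, 1.43 and 3.43 TPM in KO vehicle and 0.69, 1.26 and 2.17 TPM in WT (log2 0.41 ± 0.28, adjusted p = 0.225). Siglec1, sialoadhesin, had a log2 fold change of -0.04 ± 0.38. Vsig4, a complement receptor of resident macrophages, had 0, 0 and 0.43 TPM in KO vehicle and 0, 0.215 and 0.39 TPM in WT and was not tested.

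Smooth muscle transcripts differed between these groups along with the resident genes. The summed level of 6 smooth muscle markers was 235 to 6231 TPM in KO vehicle (median 1926) and 3756 to 8658 TPM in WT (median 5932), and all 6 were called lower. Within the 10 KO vehicle libraries, the smooth muscle gene Tagln was highest in libraries 3 and 8, at 1385 and 1011 TPM, and of these 10 library 3 also held the highest Folr2 (5.67 TPM) and library 8 the highest Cd163 (1.95 TPM). The part of tissue composition in the resident genes was not tested.

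Neutrophil and T cell transcripts were higher in the same knockout libraries as the inflammatory members. The summed level of 7 neutrophil markers was 259 to 5272 TPM in KO vehicle (median 815) and 195 to 299 TPM in WT (median 237), and the 4 that passed the filter were all called higher. In WT nearly all of that sum was Ly6g, at 194 to 298 TPM, while S100a8 and S100a9 reached at most 2.49 and 2.24 TPM there, against medians of 49.6 and 23.4 TPM in KO vehicle. S100a8 and S100a9 were tested only because they are high in KO vehicle, so their calls add little to the count of 4. KO vehicle library 2, with the highest S100a8 at 2969 TPM, also held the highest Ly6c2, Cd14, Clec4e, Clec7a and Itgam. T cell markers summed to 16.3 to 48.5 TPM in KO vehicle and 3.91 to 18.8 TPM in WT, and dendritic cell markers to 12.1 to 26.7 TPM in KO vehicle and 5.51 to 10.6 TPM in WT. Neutrophils and dendritic cells share several of the inflammatory genes, and their part in these results was not tested. Of the 5 colon epithelium markers 4 were called higher too, with summed medians of 9434 TPM in KO vehicle and 6213 TPM in WT. The part of epithelium was not tested either. Without KO vehicle libraries 2, 3 and 8, a choice made after seeing the data, 21 members were higher and 2 lower of 31 tested.

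**Figure D1:**
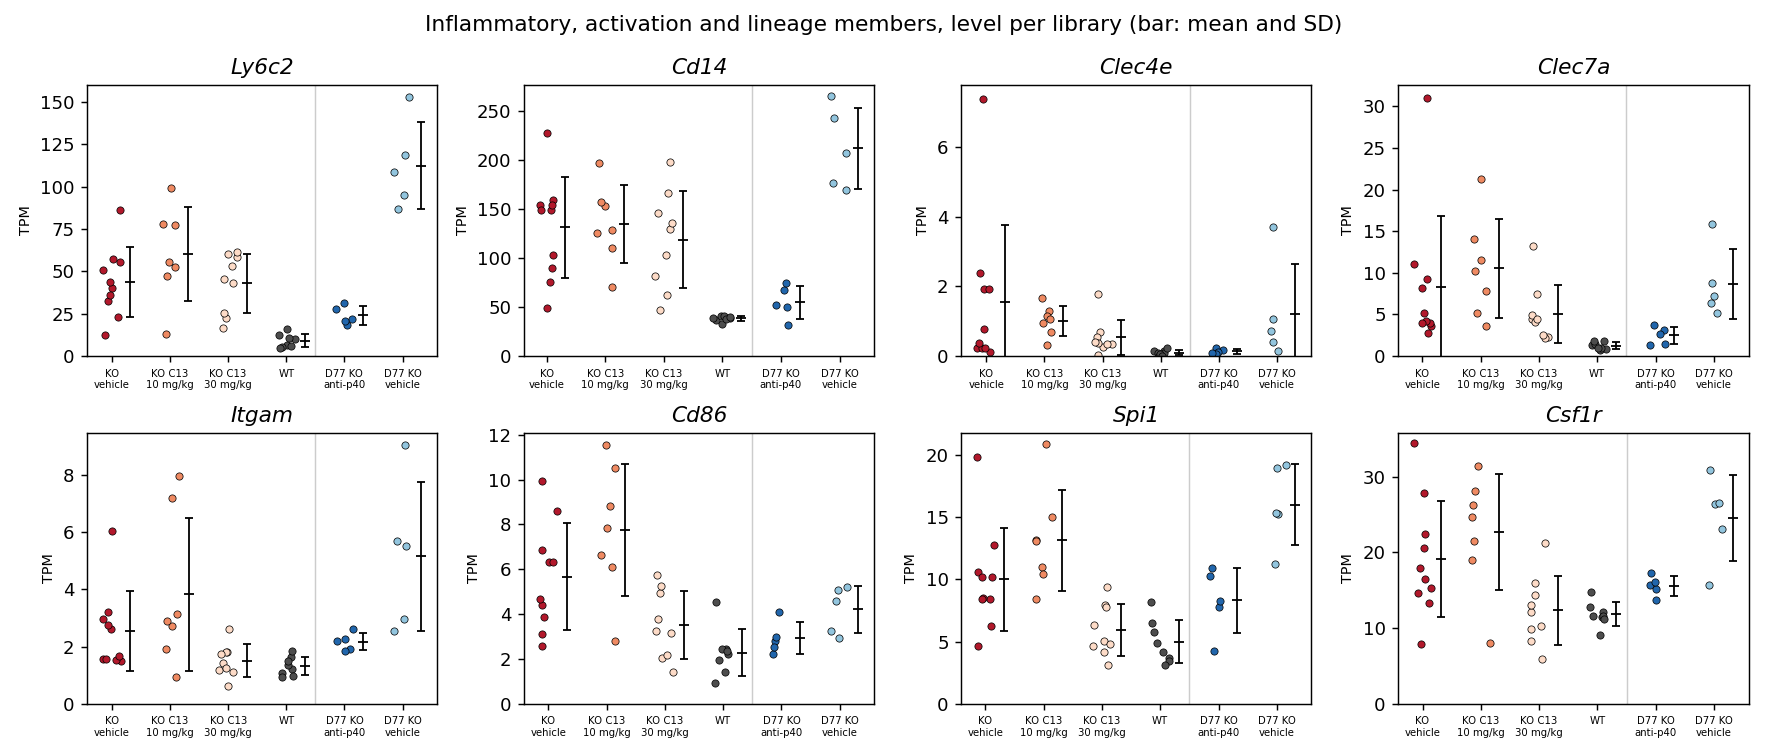
TPM of 8 members in each library, by group, with the mean and SD at the right of each cluster of points; the vertical line separates the day 77 cohort. Ly6c2 and Cd14 are higher in KO vehicle than in WT (medians of 42.0 and 149 TPM against 8.48 and 38.8 TPM) and lower in D77 anti-p40 than in D77 vehicle.

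**Figure D2:**
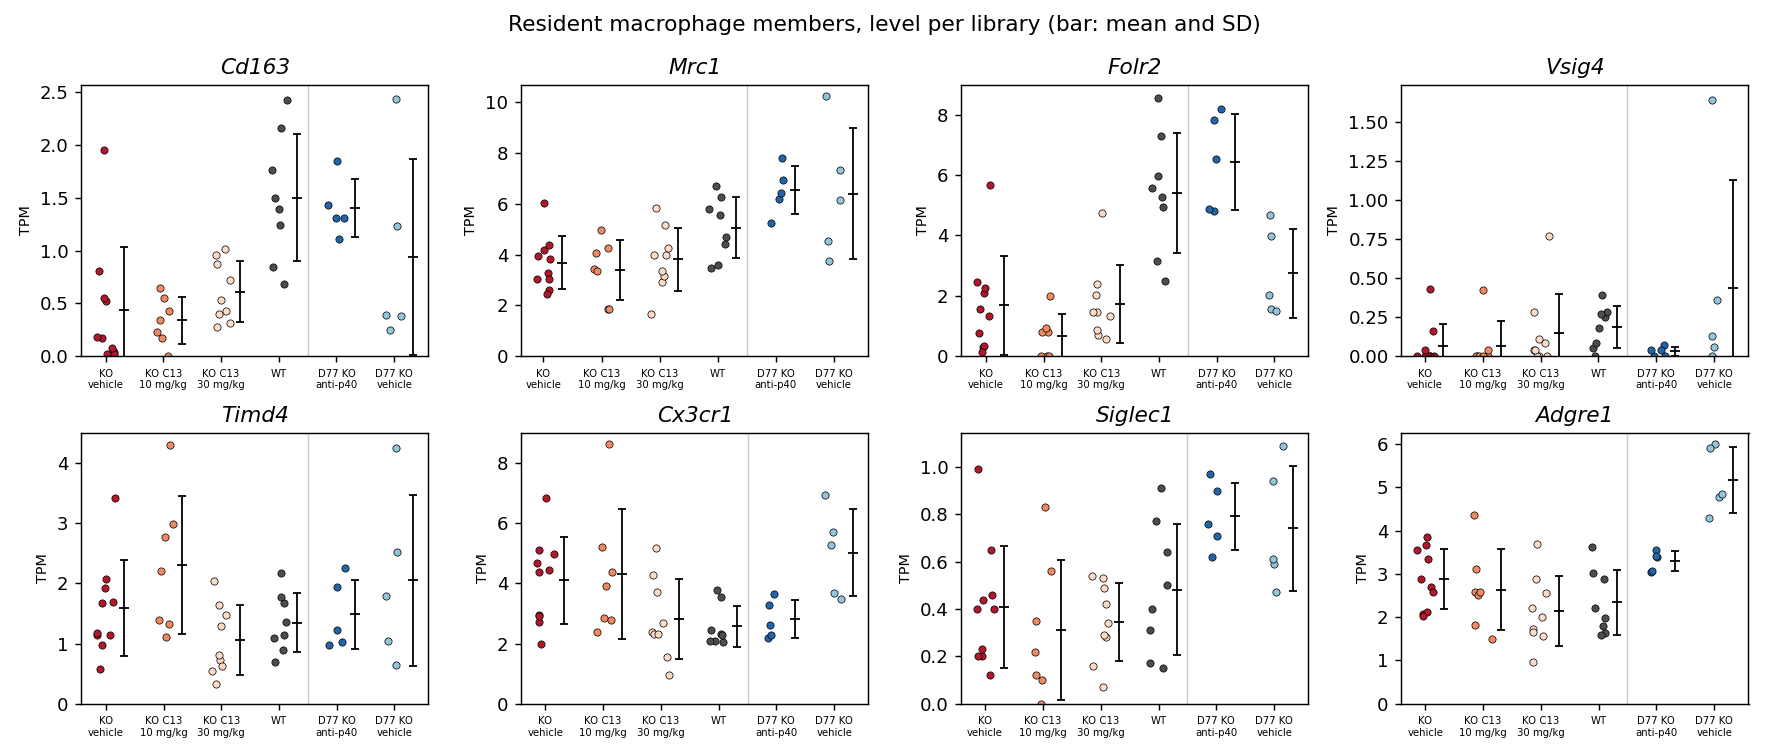
TPM of the 8 resident members in each library, by group, with the mean and SD at the right of each cluster. Folr2 lies lower in KO vehicle (median 1.44 TPM) than in WT (5.42 TPM) and higher in D77 anti-p40 than in D77 vehicle, while Cx3cr1 runs the other way.

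The regulatory sequence upstream of 5 of these genes is shown because 3 of them gave the largest rises among inflammatory members and the other 2 the lowest log2 fold changes of all members. The windows are the 250 bases before the gene start, from RefSeq promoters of GRCm38.p6, printed 5′ to 3′ on the gene's strand. Capitals mark GAGGAA or its reverse complement TTCCTC, a core sequence bound by PU.1, and TGCTGA or its reverse complement TCAGCA, a part of the site bound by MAF factors. Where a gene has several windows the one nearest the GENCODE start is given.
Ly6c2 (chr15:75111972-75112221, minus strand): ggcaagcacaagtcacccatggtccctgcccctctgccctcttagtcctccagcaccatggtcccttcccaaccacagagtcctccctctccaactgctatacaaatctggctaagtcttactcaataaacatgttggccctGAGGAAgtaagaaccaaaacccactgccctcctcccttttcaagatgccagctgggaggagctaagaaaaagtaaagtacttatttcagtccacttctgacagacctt
Clec4e (chr6:123289872-123290121, minus strand): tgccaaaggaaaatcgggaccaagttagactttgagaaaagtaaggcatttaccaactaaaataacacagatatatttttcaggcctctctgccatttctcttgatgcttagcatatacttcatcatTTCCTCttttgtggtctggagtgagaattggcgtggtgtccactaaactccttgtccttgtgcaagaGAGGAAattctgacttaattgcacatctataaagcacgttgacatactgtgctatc
Clec7a (chr6:129472780-129473029, minus strand): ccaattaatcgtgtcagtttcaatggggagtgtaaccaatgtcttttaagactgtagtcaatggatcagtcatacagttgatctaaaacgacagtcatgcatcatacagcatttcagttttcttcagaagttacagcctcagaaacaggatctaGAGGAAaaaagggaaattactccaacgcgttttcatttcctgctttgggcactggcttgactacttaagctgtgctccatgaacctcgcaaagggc
Folr2 (chr7:101857191-101857440, minus strand): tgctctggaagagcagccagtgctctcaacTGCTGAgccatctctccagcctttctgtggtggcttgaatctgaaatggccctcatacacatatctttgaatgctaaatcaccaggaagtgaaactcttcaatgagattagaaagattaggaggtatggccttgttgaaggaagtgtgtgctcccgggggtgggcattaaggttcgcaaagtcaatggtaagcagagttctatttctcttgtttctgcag
Cd163 (chr6:124304401-124304650, plus strand): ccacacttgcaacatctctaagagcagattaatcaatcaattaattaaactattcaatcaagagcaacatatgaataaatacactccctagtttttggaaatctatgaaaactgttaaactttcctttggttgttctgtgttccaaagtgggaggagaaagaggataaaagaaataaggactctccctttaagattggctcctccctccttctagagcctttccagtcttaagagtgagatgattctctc
Of the 35 members, 22 had a window. For the shares that follow, all windows of a gene were used, and a gene counts if any of them holds the motif. GAGGAA in either orientation was in a window of 11 of these 22 genes and of 25.9% of all 27025 genes with one. TGCTGA was in 6 of the 22 and in 18% of all. In the printed windows Ly6c2 and Clec7a hold 1 PU.1 core each, Clec4e holds 2, Folr2 holds 1 MAF half-site, Cd163 holds neither, and no base belongs to both motifs. These are letter matches in a fixed window.

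Lineage genes rose with the inflammatory members. Spi1 had 4.67, 9.37 and 19.8 TPM in KO vehicle and 3.15, 4.52 and 8.21 TPM in WT, with 8 of 10 knockout libraries above every WT library (log2 1.33 ± 0.20, adjusted p = 7.02e-05). Csf1r had 7.93, 17.2 and 34.4 TPM in KO vehicle and 9.13, 11.5 and 14.8 TPM in WT. Of the knockout libraries, 7 were above the WT range and 1 was below it (log2 0.85 ± 0.21, adjusted p = 0.00333).

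Receptors and enzymes of macrophage function followed. Csf2rb, the shared beta chain of the receptors for GM-CSF, interleukin 3 and interleukin 5, gave 1.83 ± 0.29 on the log2 scale, Msr1, a scavenger receptor, 1.75 ± 0.33, Itgax, the integrin CD11c, 1.55 ± 0.23, and Mpeg1, a pore-forming protein, 1.46 ± 0.24, all called higher. Csf2rb shares 12.3% of its 50-base transcript windows with Csf2rb2, which also rose (log2 1.62 ± 0.33, adjusted p = 0.000743). Lyz2, Aif1, Bin2, Csf2ra, Tyrobp and Pirb were called with log2 fold changes between 0.76 and 1.22. Pirb missed the threshold on the TPM scale (adjusted p from 0.114 to 0.177). Cd68 and Ptpn6 rose least, by 0.54 and 0.44, and lost the call in 4 and 3 of 18 refits and on the TPM scale. Trem2, Cd83 and Cd209a did not pass (log2 -0.30, 0.30 and -0.09).

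Genes of the pathway outside the list were also split. Of 48 genes of recruitment, growth factors, regulation and subsets, 41 were tested, 30 were higher and 5 lower. The 4 largest rises were in Nos2, the inducible nitric oxide synthase (log2 6.87 ± 0.74), the chemokine gene Ccl8 (4.08 ± 0.49), Tnf (3.78 ± 0.50) and Il1b (3.41 ± 0.66). The 4 lowest values among the called were in F13a1, coagulation factor XIII subunit A (-1.73 ± 0.46), Lyve1, a hyaluronan receptor of lymphatic vessels and of resident macrophages (-1.11 ± 0.21), Gas6 (-0.74 ± 0.19) and Mertk (-0.45 ± 0.10), which act together in the uptake of dying cells. Of 5 lymphatic markers, Lyve1 among them, 3 were lower (median log2 -0.69), the others being Flt4 (-0.82 ± 0.23) and Ccl21a (-0.69 ± 0.28), and the part of lymphatic vessels in the Lyve1 value was not tested. Ly6c1, Csf2rb2 and Pira2, which share sequence with members, were higher (Pira2 0.96 ± 0.27), and Chil4 was listed at 0 in every library of both groups.

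Anti-p40 was compared with vehicle in the day 77 cohort, to see how blocking interleukins 12 and 23 bears on the knockout colon. Most members were lower with the antibody and Folr2 was higher. Of 32 members tested, 18 were lower and 1 higher (8.32% and 8.35% of 16470 genes, 16.7% in both directions). The median log2 fold change was -0.75 over members and 0.01 over all genes. Among inflammatory members 5 of 8 tested were lower, among shared members 11 of 17, and among resident members 2 were lower and 1 higher of 7.

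Ly6c2 had 18.2, 21.7, 27.9, 20.6 and 31.4 TPM with anti-p40 and 109, 119, 153, 94.9 and 86.9 TPM with vehicle. The groups did not overlap. It was 4.75-fold lower, with a log2 fold change of -2.25 ± 0.22 (adjusted p = 0.000272). Ly6c1 fell alongside it (log2 -2.67 ± 0.34), and Plac8 was at a median of 1132 TPM with anti-p40 and 2586 TPM with vehicle. Here too the cell source of Plac8 was not tested.

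Cd14 had 49.7, 31.2, 67.4, 52.3 and 74.2 TPM with anti-p40 and 243, 207, 265, 169 and 177 TPM with vehicle. Again every anti-p40 library lay below every vehicle library (log2 -2.06 ± 0.25, adjusted p = 0.000677). Clec7a had 3.71, 3.13, 1.35, 1.46 and 2.69 TPM with anti-p40 and 6.38, 5.21, 15.8, 8.75 and 7.23 TPM with vehicle (log2 -2.05 ± 0.43, adjusted p = 0.0108).

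Of the members tested, 10 did not overlap and were lower with the antibody (4.19% of all genes were) and 1, Folr2, was higher (8.31%). Besides those above they were Adgre1, Itgax, Lyz2, Mpeg1, Tyrobp, Aif1 and Spi1. Lyz2 had 514, 506, 336, 401 and 496 TPM with anti-p40 and 988, 519, 1060, 667 and 675 TPM with vehicle (log2 -0.92 ± 0.23, adjusted p = 0.0213, and 0.051 without anti-p40 library 4). Spi1 had 10.3, 10.9, 4.27, 7.79 and 8.25 TPM with anti-p40 and 18.9, 11.2, 15.2, 19.2 and 15.4 TPM with vehicle, where antibody library 2 came close to vehicle library 2.

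Spi1 and Itgam fell with log2 fold changes of -1.0 ± 0.22 and -1.39 ± 0.30 (adjusted p = 0.0131 and 0.0112). Itgam, however, overlapped, at 2.20, 2.63, 2.28, 1.93 and 1.85 TPM with anti-p40 and 9.07, 2.55, 5.71, 5.51 and 2.98 TPM with vehicle. Csf1r had 15.7, 17.3, 13.7, 15.2 and 16.03 TPM with anti-p40 and 26.4, 15.6, 26.5, 30.9 and 23.1 TPM with vehicle (log2 -0.74 ± 0.17, adjusted p = 0.0132). Vehicle library 2 was the one that lay inside the antibody range for Csf1r. Its adjusted p was 0.0847 in a fit of all 6 groups and 0.0628 with log2(TPM + 1) without a filter, a setting in which Itgam (0.0903), Lyz2 (0.0616), Cx3cr1 (0.0789) and Spi1 also missed the threshold.

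Itgax had 6.34, 7.31, 3.76, 4.11 and 6.25 TPM with anti-p40 and 11.9, 8.21, 13.8, 16.1 and 12.5 TPM with vehicle (log2 -1.24 ± 0.22). Mpeg1 had 10.3, 11.8, 11.7, 8.83 and 11.8 TPM with anti-p40 and 24.1, 15.2, 29.6, 24.3 and 23.8 TPM with vehicle (log2 -1.22 ± 0.20). Both sets were separate, the vehicle low point again being library 2. Aif1, a calcium-binding protein of macrophages, had 18.4, 17.2, 9.94, 12.8 and 17.0 TPM with anti-p40 and 23.1, 32.4, 31.6, 34.9 and 23.5 TPM with vehicle (log2 -1.19 ± 0.20).

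Tyrobp, the adaptor protein DAP12, had 43.2, 39.5, 33.3, 40.8 and 42.5 TPM with anti-p40 and 71.4, 52.7, 102, 95.5 and 62.0 TPM with vehicle, with no overlap (log2 -1.09 ± 0.21). Less secure calls were those of Cd86 (log2 -0.79 ± 0.24, adjusted p = 0.0472), Bin2 (-0.98 ± 0.29), Csf2rb (-0.83 ± 0.22), Csf2ra (-0.55 ± 0.17) and Pirb (-0.76 ± 0.20). Leaving out a library ended the call of Cd86 and Bin2 in 8 of 10 refits each, of Csf2ra in 7, of Csf2rb in 5 and of Pirb in 3. Cd86 had 2.79, 4.11, 2.22, 2.54 and 2.99 TPM with anti-p40 and 5.08, 2.91, 5.20, 4.59 and 3.24 TPM with vehicle.

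The receptor chains and Bin2 overlapped between the groups. Csf2rb had 6.09, 7.58, 4.62, 4.51 and 6.72 TPM with anti-p40 and 11.7, 6.40, 10.9, 12.4 and 7.80 TPM with vehicle. Csf2ra had 10.4, 10.9, 6.82, 9.54 and 10.6 TPM with anti-p40 and 13.9, 10.6, 14.1, 16.1 and 11.0 TPM with vehicle. In both, vehicle library 2 lay within the antibody range. Bin2 had 3.79, 4.78, 2.05, 3.23 and 3.76 TPM with anti-p40 and 9.99, 3.90, 6.10, 8.07 and 5.86 TPM with vehicle. Pirb, an inhibitory receptor that binds MHC class I, had 4.73, 4.58, 3.56, 3.64 and 3.84 TPM with anti-p40 and 5.85, 4.26, 6.98, 8.92 and 5.24 TPM with vehicle. Pirb shares 16.8% of its 50-base windows with Pira2, an activating receptor.

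The resident genes again ran in both directions. Folr2 had 8.19, 4.79, 6.53, 7.82 and 4.88 TPM with anti-p40 and 2.01, 4.68, 1.55, 3.96 and 1.49 TPM with vehicle. Antibody library 2 lay just above vehicle library 2, and the groups did not overlap. The rise was 2.22-fold (log2 1.15 ± 0.29, adjusted p = 0.0209), and its adjusted p was 0.0516 without vehicle library 1 and 0.0509 without anti-p40 library 1.

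Adgre1 had 3.04, 3.07, 3.55, 3.39 and 3.41 TPM with anti-p40 and 6.01, 4.28, 4.77, 5.91 and 4.84 TPM with vehicle, without overlap (log2 -0.74 ± 0.13, adjusted p = 0.00431). Cx3cr1 had 2.63, 3.66, 2.20, 3.29 and 2.29 TPM with anti-p40 and 5.70, 3.67, 3.49, 5.27 and 6.95 TPM with vehicle (log2 -0.91 ± 0.21, adjusted p = 0.0157), a case with overlap. In a fit of all 6 groups, which called 12 members lower, the adjusted p was 0.0576 for Adgre1, 0.0585 for Cx3cr1 and 0.351 for Folr2.

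Cd163, Mrc1 and Timd4 did not pass. Cd163 had 1.11, 1.31, 1.43, 1.85 and 1.31 TPM with anti-p40 and 0.39, 1.23, 0.38, 2.44 and 0.25 TPM with vehicle (log2 0.49 ± 0.53). Mrc1 had 7.82, 6.94, 6.20, 5.25 and 6.43 TPM with anti-p40 and 3.75, 6.14, 10.3, 7.34 and 4.52 TPM with vehicle. Timd4 had 0.98, 2.26, 1.22, 1.02 and 1.94 TPM with anti-p40 and 4.25, 1.80, 1.04, 2.52 and 0.64 TPM with vehicle. For all of them the vehicle libraries were spread more widely than the antibody ones.

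Clec4e had 0.17, 0.24, 0.11, 0.07 and 0.08 TPM with anti-p40 and 0.72, 0.41, 3.69, 1.07 and 0.14 TPM with vehicle, and was below the filter in the comparison itself, while a fit without the filter gave a log2 fold change of -3.62 (adjusted p = 0.0389). In the settings that called Clec4e the adjusted p ran from 0.00831 to 0.0461. Chil3 had 0.42, 4.31, 0.36, 9.62 and 2.06 TPM with anti-p40 and 0.08, 0, 0.62, 0.35 and 0.05 TPM with vehicle. It too was below the filter. A fit without the filter gave a log2 fold change of 3.72 (adjusted p = 0.113), which missed the threshold, and a fit of all 6 groups gave 3.71 ± 1.12 (adjusted p = 0.0319). Chil3 shares 16.9% of its 50-base windows with Chil4, which was listed at 0 in all vehicle libraries and reached 0.58 TPM with anti-p40.

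Arg1 had 1.51, 2.29, 0.48, 5.57 and 1.44 TPM with anti-p40 and 2.28, 0.26, 3.22, 0.97 and 0.66 TPM with vehicle (log2 0.60 ± 0.86, adjusted p = 0.672). Vsig4 had 0, 0.07, 0.04, 0 and 0.04 TPM with anti-p40 and 1.64, 0.36, 0, 0.13 and 0.06 TPM with vehicle and was below the filter. Its log2 fold change in an edgeR fit without the filter was -3.61 (adjusted p = 0.089), which missed the threshold. With anti-p40, the authors' deposited table has 20 members lower and 2 higher at an adjusted p under 0.05. Chil3 (log2 3.69) was among the higher and the resident member Vsig4 (log2 -3.84) among the lower.

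Outside the members, 20 of 43 pathway genes tested were lower and 2 higher. The 4 lowest were Nos2 (log2 -5.23 ± 0.71), Tnf (-3.06 ± 0.45), Ly6c1 and Fpr2, a receptor for formylated peptides (-2.66 ± 0.61). Mertk (1.04 ± 0.25) and Lyve1 (0.79 ± 0.20) were the 2 higher, and by the rule of the 4 largest values Ms4a7 (-0.60 ± 0.14) and Irf8, a transcription factor of the lineage (-0.73 ± 0.15), followed. Of 5 lymphatic markers, Lyve1 and Flt4 (0.65 ± 0.19) were higher and 3 did not pass (median log2 0.36), and their part in the Lyve1 value was not tested. Csf2rb2 and Pira2 did not pass (log2 -0.79 and -0.40).

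Other cell types differed in the same samples. Neutrophil markers summed to 219 to 949 TPM with anti-p40 and 529 to 4388 TPM with vehicle. Of these sums Ly6g made up 216 to 943 TPM with anti-p40 and 444 to 1294 TPM with vehicle. S100a8 was at a median of 3.01 TPM with anti-p40 and 325 TPM with vehicle. Of 7 dendritic cell markers 2 were lower (median log2 -0.81), with summed levels of 10.3 to 17.9 TPM with anti-p40 and 16.2 to 27.6 TPM with vehicle. All 5 T cell markers were lower, with summed levels of 3.5 to 13.5 TPM with anti-p40 and 23.5 to 39.6 TPM with vehicle. Smooth muscle markers summed to 2956 to 7444 TPM with anti-p40 and 924 to 2785 TPM with vehicle, and 5 of 6 were called higher. Of 5 colon epithelium markers 1 was called lower (median log2 -0.25). The part of these cell types in the member results was not tested.

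**Figure D3:**
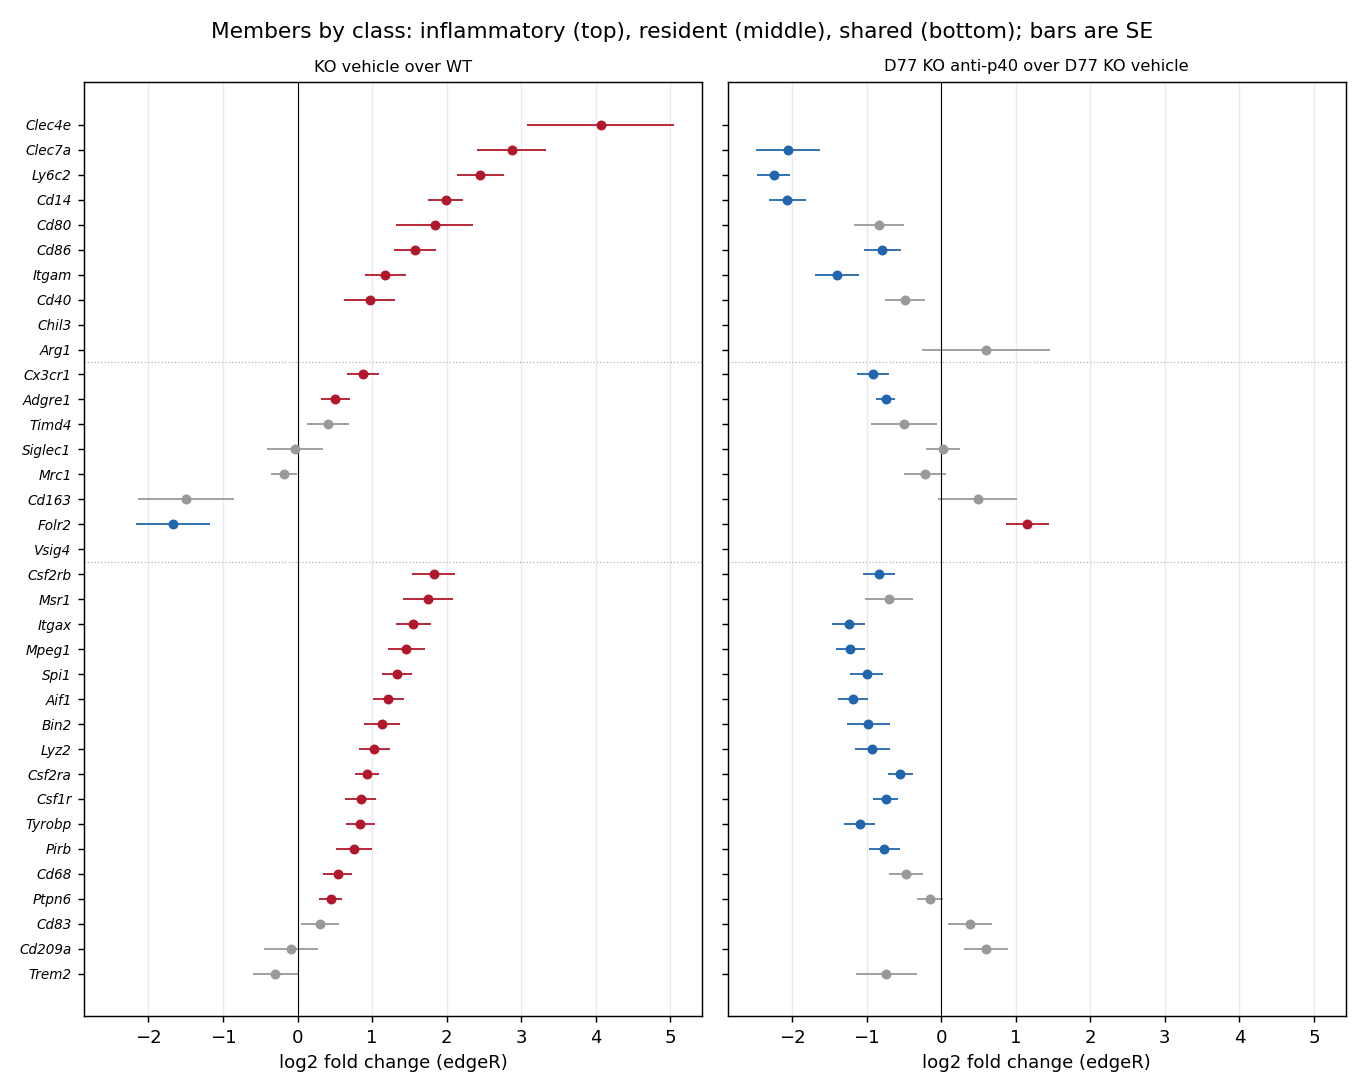
log2 fold change of each member, with SE, for KO vehicle over WT and for D77 anti-p40 over D77 vehicle; red marks genes called higher, blue genes called lower and grey genes that did not pass; members with no point were not tested. The inflammatory members sit right of 0 for the knockout (median 1.91) and mostly left of 0 for anti-p40 (median -1.11), and Folr2 takes the opposite side in each.

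Compound 13 was compared with vehicle in knockout mice at 10 and 30 mg/kg. No member was called at either dose. Among all 16948 genes tested, 0.0118% were called at 10 mg/kg (0.0059% higher and 0.0059% lower), and 0% at 30 mg/kg. No member had ranges apart from those of vehicle at either dose, where at 10 mg/kg 0.0118% of all genes lay above and 0.0472% below the vehicle range, and at 30 mg/kg 0% above and 0.0059% below it. At an unadjusted p under 0.05 there were 1865 and 1004 genes, of which 4 and 10 were members. That was 11% of all genes and 12.5% of members tested at 10 mg/kg, and 5.92% and 31.2% at 30 mg/kg. DESeq2 called 81 genes at 10 mg/kg and 1 at 30 mg/kg, with no member among them. The members had a median log2 fold change of 0.31 at 10 mg/kg and -0.46 at 30 mg/kg, beside -0.02 and 0.00 for all genes.

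At 10 mg/kg 24 of the 32 members tested were above 0 and 8 below, and at 30 mg/kg 3 were above and 29 below. In all genes tested the share below 0 was 52.9% at 10 mg/kg and 49.2% at 30 mg/kg. The 2 doses were set against the same vehicle libraries, so their estimates share that group. Member by member, none of these values passed the test.

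Ly6c2 had 12.5, 42.0 and 86.2 TPM with vehicle, 12.7, 55.7 and 99.2 TPM at 10 mg/kg and 16.3, 45.5 and 61.4 TPM at 30 mg/kg (lowest, median, highest). The log2 fold changes against vehicle were 0.56 ± 0.35 and 0.00 ± 0.33 for the low and the high dose. Cd14 had 48.9, 149 and 228 TPM with vehicle, 70.3, 129 and 197 TPM at 10 mg/kg and 47.1, 130 and 199 TPM at 30 mg/kg, with the 3 groups overlapping throughout. Clec4e had 0.12, 0.57 and 7.38 TPM with vehicle, 0.31, 1.07 and 1.65 TPM at 10 mg/kg and 0.04, 0.38 and 1.79 TPM at 30 mg/kg. Its log2 fold change at 30 mg/kg was -1.28 ± 0.74, and 0.15 without KO vehicle library 2, the highest of the vehicle group.

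Cd86 had 2.57, 5.50 and 9.95 TPM with vehicle, 2.81, 7.86 and 11.6 TPM at 10 mg/kg and 1.40, 3.25 and 5.74 TPM at 30 mg/kg, giving log2 fold changes of 0.55 ± 0.25 (adjusted p = 0.419) and -0.55 ± 0.24 (adjusted p = 0.835). Cd40 had -1.08 ± 0.32 at 30 mg/kg (unadjusted p = 0.00236, adjusted p = 0.835), with all 9 libraries below the vehicle mean. The summed B cell markers at 30 mg/kg had a median of 93.1 TPM, beside 145 TPM with vehicle, and their part in these values was not tested. Spi1 had 4.67, 9.37 and 19.8 TPM with vehicle, 8.39, 13.1 and 20.9 TPM at 10 mg/kg and 3.11, 5.06 and 9.40 TPM at 30 mg/kg.

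The lowest unadjusted p among members at 30 mg/kg was that of Bin2, which encodes a protein that bends membranes (log2 -0.78 ± 0.20, p = 0.00069, adjusted p = 0.835). At 10 mg/kg it was that of Csf2ra, the alpha chain of the GM-CSF receptor (0.47 ± 0.16, p = 0.00686, adjusted p = 0.317). Csf1r had 7.93, 17.2 and 34.4 TPM with vehicle, 8.08, 24.7 and 31.4 TPM at 10 mg/kg and 5.88, 12.1 and 21.2 TPM at 30 mg/kg. Each gene overlapped between all groups.

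Of the resident members, Folr2 had 0.14, 1.44 and 5.67 TPM with vehicle, 0, 0.78 and 2.0 TPM at 10 mg/kg and 0.56, 1.44 and 4.75 TPM at 30 mg/kg. Cd163 had 0.02, 0.175 and 1.95 TPM with vehicle, 0, 0.34 and 0.64 TPM at 10 mg/kg and 0.27, 0.53 and 1.01 TPM at 30 mg/kg. Adgre1 had 2.02, 2.79 and 3.86 TPM with vehicle, 1.5, 2.59 and 4.35 TPM at 10 mg/kg and 0.96, 2.0 and 3.68 TPM at 30 mg/kg. Their log2 fold changes ran from -1.76 ± 0.81 (Folr2 at 10 mg/kg, adjusted p = 0.421) to 0.51 ± 0.67 (Cd163 at 30 mg/kg).

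The other resident members overlapped likewise. Mrc1 had 2.45, 3.55 and 6.04 TPM with vehicle, 1.85, 3.43 and 4.98 TPM at 10 mg/kg and 1.67, 3.97 and 5.84 TPM at 30 mg/kg. Cx3cr1 had 2.0, 4.42 and 6.83 TPM with vehicle, 2.39, 3.93 and 8.63 TPM at 10 mg/kg and 0.94, 2.40 and 5.18 TPM at 30 mg/kg. Timd4 had 0.57, 1.43 and 3.43 TPM with vehicle, 1.11, 2.20 and 4.31 TPM at 10 mg/kg and 0.33, 0.81 and 2.04 TPM at 30 mg/kg. Chil3, Arg1 and Vsig4 were below the filter at both doses and reached at most 0.65, 0.62 and 0.77 TPM in any library given the compound.

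**Figure D4:**
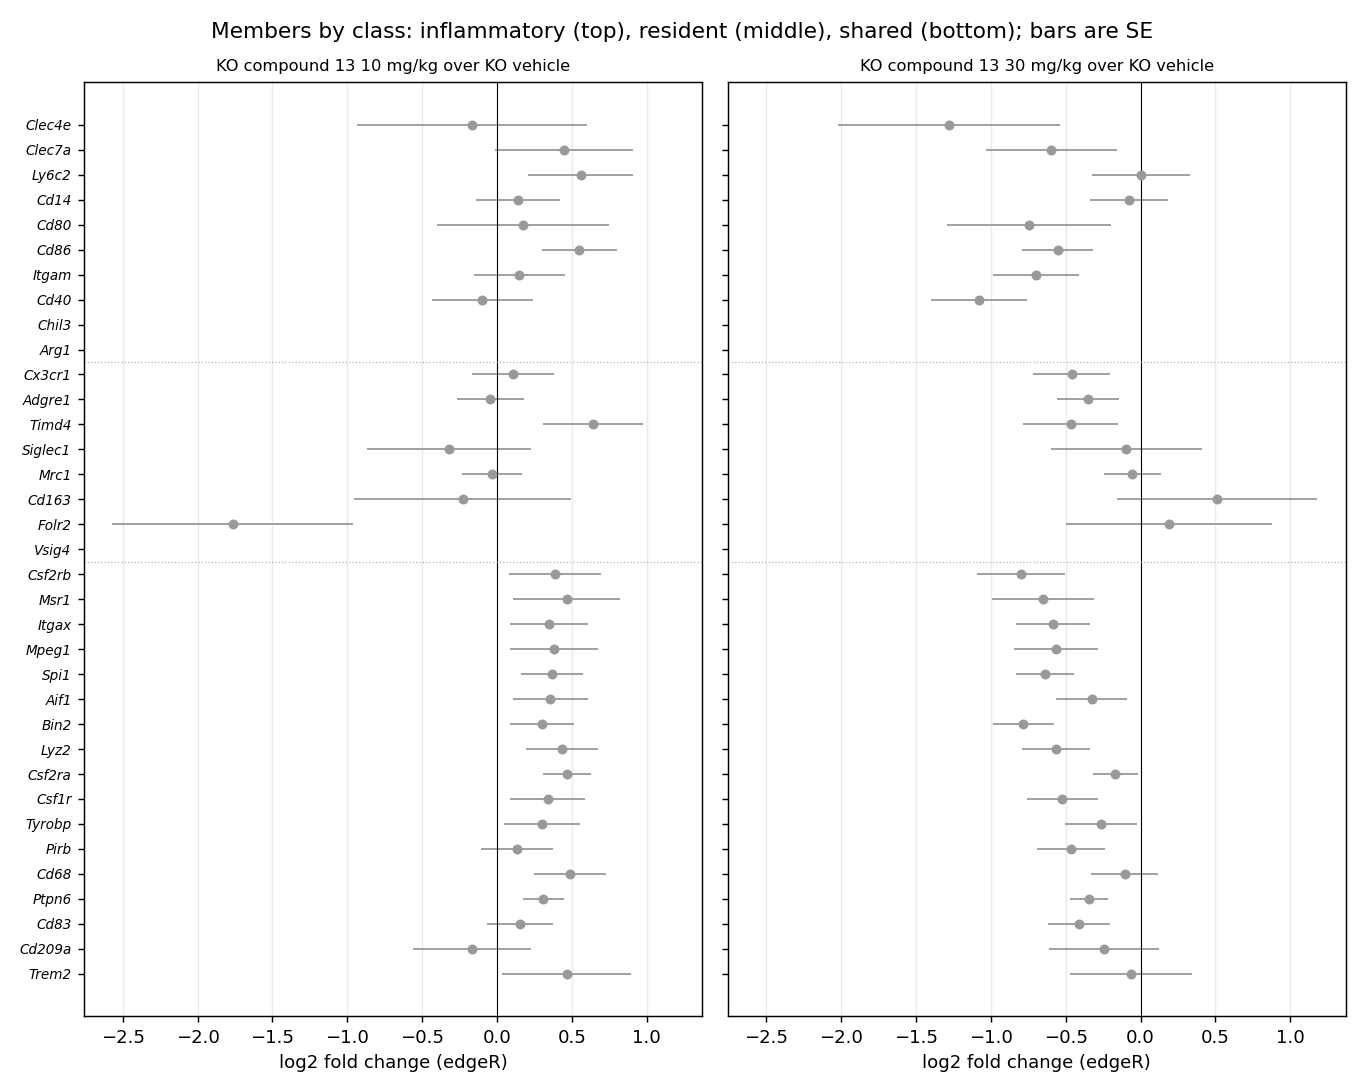
log2 fold change of each member, with SE, for KO compound 13 at 10 and at 30 mg/kg over KO vehicle; all points are grey because no member passed the test. The points lie around the median of 0.31 at 10 mg/kg and -0.46 at 30 mg/kg.

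The response to anti-p40 and that to compound 13 at 30 mg/kg were compared directly in a fit of all 6 groups, each treatment against the vehicle of its own cohort. Of 34 members tested 2 differed, both more negative with anti-p40, where 1.2% of 18021 genes did so and 0.444% were more positive. They were Ly6c2 (difference -2.25 ± 0.50 on the log2 scale, adjusted p = 0.00942) and Cd14 (-1.98 ± 0.40, adjusted p = 0.00367). On the log2(TPM + 1) scale the split of all calls was 209 more positive and 139 more negative in place of 80 and 217, and the median of all genes was 0.18. Each treatment was given in its own cohort, so treatment and cohort cannot be told apart.

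A score summed up the contrast between inflammatory and resident genes. It was the mean log2(CPM + 1) over the 10 inflammatory members minus that over the 8 resident ones, with CPM scaled by TMM over all 44 grouped libraries. The 10 include Chil3 and Arg1, which were below the filter in the knockout comparison. Their means were higher with anti-p40 than with D77 vehicle (Chil3 3.35 and 0.22 TPM, Arg1 2.26 and 1.48 TPM). Since the members were chosen with earlier results known, it carries no test. The difference between the scores averaged 0.64 ± 0.65 in KO vehicle and -0.52 ± 0.27 in WT (SD, n = 10 and 8), and 9 of 10 knockout libraries were above every WT library. The inflammatory score made up most of this, at 2.54 ± 0.58 in KO vehicle and 1.52 ± 0.12 in WT, while the resident score was 1.90 ± 0.29 in KO vehicle and 2.05 ± 0.28 in WT. KO vehicle library 3 had the lowest difference, -0.44, and library 2 the highest, 1.98.

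In the day 77 cohort the difference averaged -0.13 ± 0.14 with anti-p40 and 0.54 ± 0.51 with vehicle (n = 5 each), and all 5 antibody libraries were below every vehicle one. The cohort without a day label gave 0.64 ± 0.65 with vehicle, 0.88 ± 0.45 at 10 mg/kg (n = 7) and 0.41 ± 0.45 at 30 mg/kg (n = 9), with overlapping ranges. With log2(CPM + 0.1) in place of log2(CPM + 1) the knockout difference was 1.87 in place of 1.16.

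**Figure D5:**
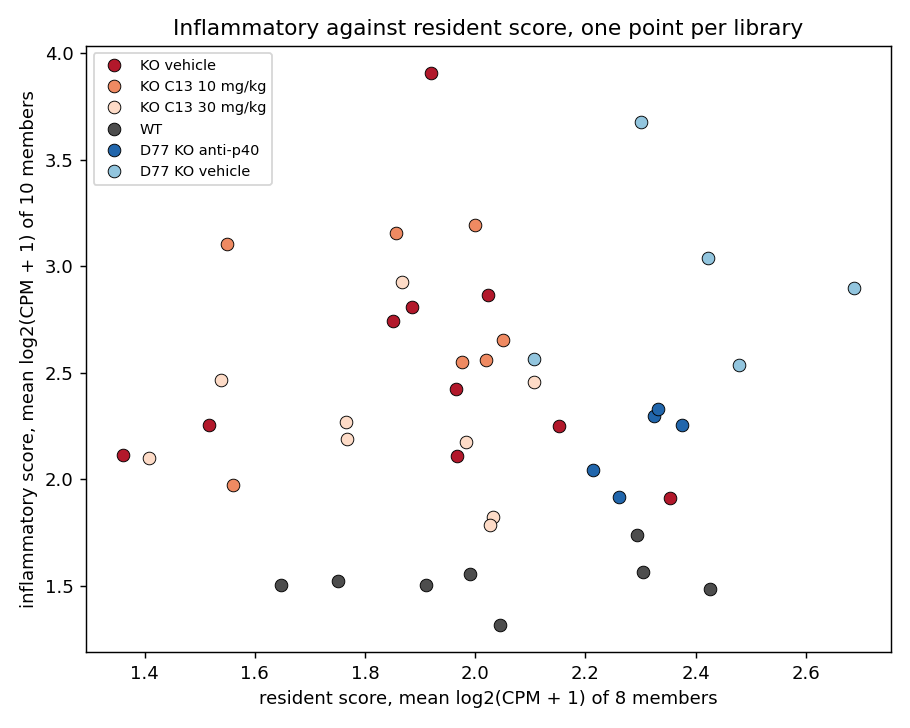
Inflammatory score against resident score, each a mean log2(CPM + 1), with 1 point per library coloured by group. WT libraries lie at the bottom with inflammatory scores of 1.32 to 1.74, below every KO vehicle library (1.91 or more), and anti-p40 libraries (1.92 to 2.33) lie below every D77 vehicle library (2.54 or more).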

How the data were processed

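RNA was column-purified and libraries were made by poly(A) enrichment, per the labels' protocols. The build mm10, trimming software cutadapt 3.7, the aligner STAR 2.7.8a, the quantifier RSEM 1.3.3 and DESeq2 1.30.1 are named in the submitters' processing notes. The sources used here do not give the annotation, strandedness or treatment of multiply mapped reads. Values deposited by the authors are unnormalized estimated counts for each gene, of which 17.1% and 20.4% of values above 0 in the first and the day 77 cohort were not whole. The authors also deposited TPM for the same libraries. For 4 comparisons the authors deposited a log2 fold change and an adjusted p-value per gene, as the file headers name them.

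Estimated counts were rounded and tested with edgeR 4.0.16 (TMM, default filter, robust quasi-likelihood) under R 4.3.3, with Benjamini-Hochberg adjustment over all genes tested and a call at an adjusted p under 0.05. Standard errors are the log2 fold change over the root of the F statistic. Alternatives used DESeq2 1.42.0, limma 3.58.1 (voom, and log2(TPM + 1) with genes at 1 TPM in at least as many libraries as the smallest group), other scaling and no filter. The KO vehicle against WT and the anti-p40 comparisons used their own groups, and both compound 13 doses shared one fit. Symbols, coordinates and transcripts are GENCODE M21 (GRCm38), which 50376 of 50600 identifiers matched. One library whose title and treatment field disagree on the dose entered no comparison. Replicates were compared pairwise for duplicates, and all differed beyond counting noise (chi-square over its degrees of freedom at least 8.12). The fits were tested on simulated data. Per-library values are given for a set list of members and for members called with anti-p40, and the pathway genes named are the 4 largest and 4 lowest called. The members and lists were chosen with earlier results of these data known. Plac8, Ly6g, S100a8, S100a9, Flt4, Ccl21a, Tagln and Ctrb1 were named after their values were seen. Levels of single genes are compared with each other only in TPM, which is per length. The score subtracts sets of genes in CPM, which is not per length, so it is read between libraries and not by its sign.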

Additional observations from a re-analysis of the deposited data

Results flagged for a closer look

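A library that stood apart from its group was found for 18 of 210 pairs of a member and a group. The rule flags about 1 in 20 groups of independent, normally spread values. Genes near 0 TPM are not spread that way, and 1 library can be flagged for several genes, so an excess over chance was not tested. In KO vehicle library 2 the flagged values were Itgam at 6.04 TPM and Arg1 at 5.40 TPM, and in KO vehicle library 3 Vsig4 at 0.43 TPM. At 10 mg/kg compound 13, library 5 was lowest for Ly6c2 (12.7 TPM), Csf1r (8.08 TPM), Mpeg1 (9.97 TPM) and Aif1 (12.6 TPM), library 3 was highest for Arg1 (0.53 TPM) and Vsig4 (0.42 TPM), library 4 for Cd40 (15.1 TPM) and library 1 for Csf2ra (17.4 TPM). At 30 mg/kg, library 8 was highest for Clec4e (1.79 TPM) and Chil3 (0.15 TPM) and library 2 for Vsig4 (0.77 TPM). Arg1 at 7.87 TPM in WT library 5 and Cd68 at 12.7 TPM in WT library 7 were high. With anti-p40, Cd68 at 8.13 TPM in library 4 and Cd83 at 8.88 TPM in library 3 were low.

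The effect of anti-p40 minus that of compound 13 at 30 mg/kg differed from 0 for Ly6c2 (-2.25 on the log2 scale) and Cd14 (-1.98), by edgeR's quasi-likelihood test with Benjamini-Hochberg adjustment. Over 29 refits without 1 library the adjusted p ran from 0.00245 to 0.0346 for Ly6c2 and from 0.00114 to 0.0164 for Cd14.

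The library whose title and treatment field disagree on the dose had 13 of 35 members above every WT library and 2 below every WT library. Its Ly6c2 was 52.9 TPM, its Cd14 78.2 TPM and its Folr2 1.79 TPM.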

How the results depend on the processing

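No paired analysis was possible because the replicate numbers only follow accession order. In the knockout comparison the count of members called lower was 2 with DESeq2, limma voom, log2(TPM + 1) with and without a filter, log2(TPM + 0.1) and without KO vehicle libraries 2, 3 and 8 (chosen after seeing the data), in place of 1. Compound 13 at 30 mg/kg had 1 gene with DESeq2, in place of 0. At 10 mg/kg 81 genes were called with DESeq2, 20 with log2(TPM + 1), 22 with log2(TPM + 0.1) and 19 with log2(TPM + 1) without a filter, in place of 2. For anti-p40 1782 genes were called with log2(TPM + 0.1), 1365 with log2(TPM + 1) without a filter and 1644 in one fit of 6 groups, in place of 2745, and 8 members were lower with log2(TPM + 1) without a filter, in place of 18. The difference between treatments had 650 genes with DESeq2, in place of 297, and 1 member more positive with log2(TPM + 1) without a filter, in place of 0. The knockout difference of scores was 1.87 with log2(CPM + 0.1), in place of 1.16. Without the libraries holding 100 TPM or more of Ctrb1 (chosen after seeing the data), 22 members were higher and 1 lower for the knockout, and 18 were lower and 1 higher for anti-p40. The causes were not tested.

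Leaving out 1 library gave 7199 to 9102 genes, 19 to 24 members higher and 1 to 2 lower for the knockout. It gave 1637 to 2522 genes, 13 to 18 members lower and 0 to 2 higher for anti-p40, 1 to 18 genes at 10 mg/kg, 0 at 30 mg/kg, and 167 to 577 genes with 2 to 3 members lower for the difference between treatments. The score differences ran from 1.01 to 1.28 for the knockout, 0.12 to 0.39 at 10 mg/kg, -0.35 to -0.08 at 30 mg/kg and -0.80 to -0.47 for anti-p40.

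Some log2 fold changes that missed the threshold changed sign. For the knockout, Siglec1 was -0.23 to 0.17 without a library and Cd209a was -0.26 to 0.046 without a library. At 30 mg/kg, Ly6c2 was -0.011 with edgeR without a filter, -0.0016 with log2(TPM + 1) and log2(TPM + 1) without a filter, -0.00057 with log2(TPM + 0.1), -0.11 to 0.19 without a library and Cd14 was -0.20 to 0.057 without a library. Clec4e was -1.97 to 0.15 without a library and Mrc1 was 0.025 with log2(TPM + 1) and log2(TPM + 1) without a filter, 0.023 with log2(TPM + 0.1), -0.14 to 0.043 without a library. Folr2 was -0.29 to 0.60 without a library. At 10 mg/kg, Clec4e was 0.96 with limma voom, 0.25 with log2(TPM + 0.1), -0.34 to 1.26 without a library and Cd163 was 0.11 with limma voom, -0.50 to 0.49 without a library. Mrc1 was -0.10 to 0.063 without a library and Cx3cr1 was -0.11 to 0.23 without a library. Adgre1 was -0.17 to 0.060 without a library. For anti-p40, Arg1 was -0.00068 to 1.48 without a library and Mrc1 was 0.083 with log2(TPM + 1) and log2(TPM + 1) without a filter, 0.10 with log2(TPM + 0.1), -0.37 to 0.13 without a library. Siglec1 was -0.074 to 0.18 without a library and Ptpn6 was 0.0098 with log2(TPM + 1) and log2(TPM + 1) without a filter, 0.0099 with log2(TPM + 0.1). Chil3, Arg1, Vsig4 and Clec4e have few counts, which limits their precision.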
